A study of Homo sapiens with 6 samples.

Results

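Solute carriers are the membrane proteins that move sugars, amino acids, ions, metals, vitamins, bile acids and drugs across cell membranes. Of the 11461 entries of the deposited expression table, 173 had a symbol of an SLC or SLCO family, after leaving out the mitochondrial carriers of family SLC25 and the genes SLC2A1, SLC2A2, SLC2A3 and SLC40A1. They fall into 44 families. The choice of members used the gene names alone. The 173 symbols include 6 that carry an SLC name without being carriers: the scaffold proteins SLC9A3R1 and SLC9A3R2, which hold transporters at the membrane, SLC2A4RG, SLC4A1AP, SLC7A6OS and SLC22A18AS.

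RNA was sequenced from HepG2-hCAR cells. HepG2 is a human liver carcinoma line, and HepG2-hCAR is a line grown from 1 of its cells, puromycin-selected for a lentivirus from which doxycycline switches on human CAR, the constitutive androstane receptor (gene NR1I3). Treatment was 72 h of doxycycline, a tetracycline antibiotic, at 1 µg/ml. The 3 libraries of treated cells were compared with 3 libraries of cells of the same clone given vehicle for 72 h. All cells thus carried the inducible cDNA, and no library had doxycycline without it, so what doxycycline does by itself and what the receptor does cannot be told apart. Separate cultures are not stated for the replicates, so p-values reflect no more than how these libraries varied, which may be technical spread.

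Liver cells use these carriers to take up bile acids, drugs and nutrients from blood and to return products to it. Carriers of the SLCO and SLC22 families bring in drugs and hormones, and SLC16 carriers exchange lactate and ketone bodies. Some SLC7 carriers pair with the heavy chain SLC3A2 to exchange amino acids, and SLC39 and SLC30 carriers move zinc into and out of the cytosol. CAR is a nuclear receptor best known for raising genes of drug oxidation, conjugation and transport in liver.

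NR1I3 mRNA was at 331, 317 and 316 FPKM with doxycycline, against 3.15, 3.01 and 3.56 FPKM with vehicle, which sets the 3 doxycycline libraries apart from the 3 vehicle libraries as labelled. FPKM scales fragment counts by transcript length and library total, so it compares levels between genes per unit of length, and depth is unknown. Of the 8 hepatocyte markers checked all were in the table and 6 were called lower, beside 13.6% of all genes tested. SERPINA1 and HNF4A were not called. The summed level of the 8 was 708 to 733 FPKM with doxycycline, against 1419.6 to 1562 FPKM with vehicle. The largest part of it was APOB, at 396 to 472 FPKM with doxycycline, against 804 to 847 FPKM with vehicle. ALB, the gene of albumin, was at 0.272 to 0.461 FPKM with doxycycline and 1.77 to 1.93 FPKM with vehicle. Of the 7 markers of leukocytes, endothelium and fibroblasts CD68 alone was among the genes analysed, at 4.37 to 5.48 FPKM with doxycycline, against 8.37 to 8.74 FPKM with vehicle. The part of this fall of the hepatocyte markers in the results below was not tested. Because the libraries are bulk RNA, fewer cells that express a gene and less RNA per cell cannot be told apart.

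Over the 173 solute carriers the mean level of a gene in the 6 libraries ran from 0.348 to 191 FPKM, with a median of 4.56 FPKM. Together they held 0.930% to 0.957% of all FPKM in the doxycycline libraries and 0.886% to 0.890% in the vehicle libraries. The summed level was 1957 ± 43.1 FPKM with doxycycline and 1829.9 ± 21.5 FPKM with vehicle (± is the SD of 3 libraries here and below, n = 3 in each group). Amino acid carriers held the largest part, 696 ± 17 FPKM with doxycycline and 636 ± 17.1 FPKM with vehicle. In both groups the 3 highest genes were SLC38A2, a sodium-coupled carrier of neutral amino acids, SLC7A5 and SLC1A5.

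A mean of at least 1 FPKM over the 6 libraries was required for testing, which 154 of the 173 genes had. Of these, 74 (48.1%) were called at an adjusted p below 0.05 in limma on log2(FPKM + 1), 37 higher and 37 lower with doxycycline. Over all 10469 genes tested the share called was 28.8%, with 15.2% higher and 13.6% lower. The median log2 fold change of the 154 was 0.02, beside 0.01 over all genes tested, and the median of the absolute values was 0.22 beside 0.13. All 74 had doxycycline and vehicle values that did not overlap, which selection by adjusted p favours, so it is no separate evidence. The groups did not overlap in 88 of the 154 solute carriers (57.1%), beside 47.1% of all genes tested.

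Changes were mostly small: the ratio of mean FPKM reached 1.5 in 14 of the 37 genes that rose and 17 of the 37 that fell, and 2 in 5 and 7 of them. A call together with a 2-fold change in FPKM + 1 was reached by 8 of the 154 genes (5.19%), 4 higher and 4 lower, beside 2.00% of all genes tested. By level, of the 46 with a mean of 10 FPKM or more, 34 were called (73.9%, beside 36.6% of all genes at that level), of the 37 between 5 and 10 FPKM 14 (37.8%, beside 26.6%), and of the 71 between 1 and 5 FPKM 26 (36.6%, beside 22.6%).

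**Figure D1:**
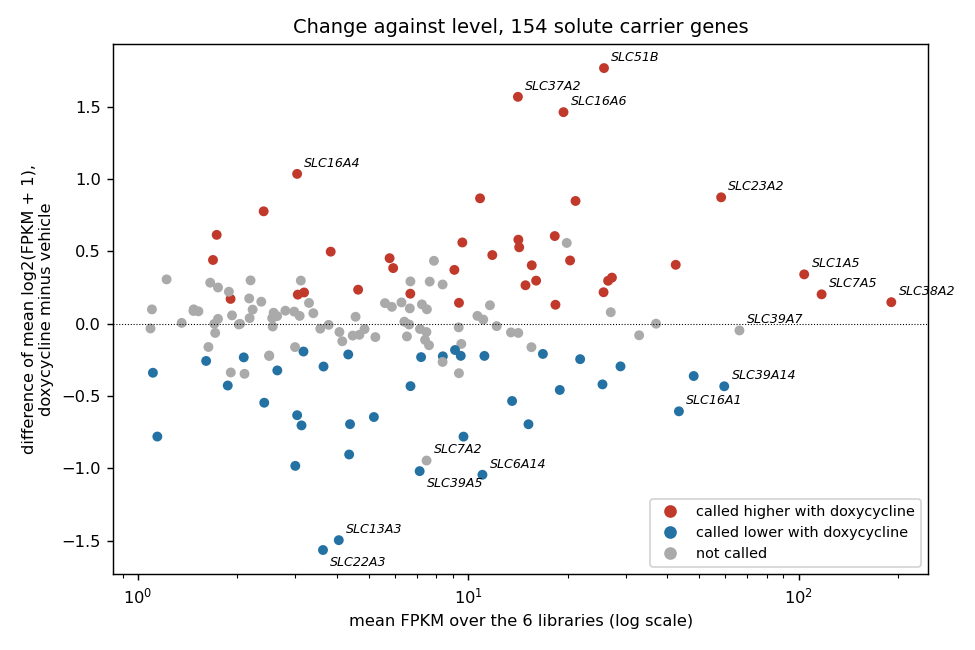
Change against level for the 154 solute carrier genes tested: the horizontal axis is the mean FPKM over the 6 libraries on a log scale, the vertical axis the difference of mean log2(FPKM + 1), doxycycline minus vehicle, and each point is 1 gene. The 4 largest increases and 4 largest decreases have means of 3.04 to 25.8 FPKM, while the 3 genes above 100 FPKM, SLC38A2, SLC7A5 and SLC1A5, are called higher with small changes.

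Promoter sequence is shown for 3 genes as examples, picked with their values known: SLC51B, with the largest increase, SLC6A14, which fell 2.21-fold, and SLC1A5, an abundant carrier with a small increase of 1.27-fold, for its match to a motif searched. Each is 1 window of 300 bases, from 250 before to 50 after a transcript start, read 5′ to 3′ on the gene's strand from RefSeq on GRCh38.p14. Capitals mark AGGTCA, the core hexamer that many nuclear receptors bind, in SLC51B, and TGATGCAA, the core of the amino acid response element, in SLC1A5. The windows are chr15:65045137-65045436, plus strand, for SLC51B, chr19:46784765-46785064, minus strand, for SLC1A5 (1 of its 3 start windows), and chrX:116436356-116436655, plus strand, for SLC6A14, whose window holds none of the motifs searched.
SLC51B: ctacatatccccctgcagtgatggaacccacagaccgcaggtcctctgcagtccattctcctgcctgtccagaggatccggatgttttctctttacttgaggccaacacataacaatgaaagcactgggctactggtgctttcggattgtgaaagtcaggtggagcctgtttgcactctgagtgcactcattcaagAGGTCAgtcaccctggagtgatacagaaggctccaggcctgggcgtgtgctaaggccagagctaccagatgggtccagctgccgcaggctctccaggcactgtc
SLC1A5: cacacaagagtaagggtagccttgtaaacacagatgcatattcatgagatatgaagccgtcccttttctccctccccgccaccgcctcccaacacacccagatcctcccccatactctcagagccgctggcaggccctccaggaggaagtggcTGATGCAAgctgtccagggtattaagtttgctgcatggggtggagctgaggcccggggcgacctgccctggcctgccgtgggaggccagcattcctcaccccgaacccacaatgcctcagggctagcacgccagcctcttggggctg
SLC6A14: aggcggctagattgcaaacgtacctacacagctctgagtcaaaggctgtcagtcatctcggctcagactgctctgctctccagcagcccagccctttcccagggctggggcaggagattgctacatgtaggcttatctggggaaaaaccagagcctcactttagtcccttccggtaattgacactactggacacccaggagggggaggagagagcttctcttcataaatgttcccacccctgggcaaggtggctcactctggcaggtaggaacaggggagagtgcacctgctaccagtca

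Windows were found for 132 of the 173 genes, 198 windows in all, and searched on both strands for exact matches beside the 35116 windows of all genes. They cover 26 of the 37 genes that rose and 27 of the 37 that fell. None was found for SLC37A2, SLC16A6, SLC22A3 and SLC13A3, so the shares leave out these large changes. AGGTCA was in 8 of the 35 windows of genes that rose (22.9%), in 1 of the 35 of genes that fell (2.86%) and in 15 of the 112 of genes that were not called (13.4%), beside 13.8% of all windows. In SLC51B its first base is at position -54 from the start. Direct repeats of AGGTCA, and of AGTTCA, with 4 bases between the copies, forms of the element that CAR binds with its partner RXR, were in none of the 198 windows and in 0.0199% and 0.0057% of all windows. TGATGCAA was in 2 of the 198 windows, those of SLC1A5 and SLC1A4, beside 0.866% of all windows. These matches describe the letters of a short window and were not tested.

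Among carriers of bile acids and steroids SLC51B showed the largest increase of all solute carriers. It encodes the beta subunit of the organic solute transporter, which lets bile acids and steroid conjugates leave the cell across the basolateral membrane (GRCh37 chromosome 15, 65337708 to 65345734, plus strand). SLC51B was at 42.3, 37.7 and 41.1 FPKM with doxycycline, against 12.5, 10.4 and 10.6 FPKM with vehicle. The lowest doxycycline library was far above the highest vehicle library, and the ratio of means was 3.61 (log2 fold change 1.77, SE 0.08, adjusted p = 4.22e-05, limma with Benjamini-Hochberg adjustment as for all adjusted p below). Its exons overlap those of RASL12 on the other strand, and whether the authors' counting used strand is not given. Overlaps on the other strand also occur in the called genes SLC39A5, SLC22A23, SLC26A11, SLC30A3, SLC31A2, SLC37A4, SLC48A1, SLC4A1AP, SLC6A6, SLC6A8 and SLC6A9. Among genes named below without a call they occur in SLC16A3, SLC39A7, SLC39A1, SLC38A6 and SLC5A6 too. The alpha subunit SLC51A and the uptake carrier SLC10A1 were not analysed here. SLC10A7, a family member known for a part in calcium balance rather than bile acid uptake, fell to 1.84 ± 0.0317 FPKM with doxycycline, against 2.34 ± 0.124 FPKM with vehicle, a call that was lost with a replicate block (adjusted p = 0.0553) and without vehicle replicate 1 (0.051) or doxycycline replicate 2 (0.0553) or 3 (0.052). SLC10A3, an orphan, was not called (3.16 ± 0.318 FPKM with doxycycline, against 3.02 ± 0.469 FPKM with vehicle).

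Of the 8 tested carboxylate carriers 3 rose and 4 fell (87.5% called, beside 28.8% of all genes tested). Their median log2 fold change was -0.11. SLC16A6, a monocarboxylate transporter known from zebrafish liver as an exporter of ketone bodies (chromosome 17, 66263167 to 66287408, minus strand), was at 30.8, 31.3 and 25.1 FPKM with doxycycline, against 9.61, 9.88 and 10.1 FPKM with vehicle. Doxycycline replicate 3 was the lowest of its group and still above every vehicle library (2.95-fold, log2 fold change 1.46, SE 0.09, adjusted p = 1.14e-04). SLC16A4, a family member with few known substrates, was at 4.13, 4.86 and 4.28 FPKM with doxycycline, against 1.32, 1.74 and 1.9 FPKM with vehicle, again without overlap (2.68-fold higher, adjusted p = 8.53e-04). SLC16A5 rose more modestly, to 6.85 ± 0.579 FPKM with doxycycline, against 5.01 ± 0.292 FPKM with vehicle. The lactate and pyruvate carrier SLC16A1 fell, at 33, 37 and 32.6 FPKM with doxycycline, against 46.9, 57.8 and 53.4 FPKM with vehicle, 1.54-fold lower by the means (log2 fold change -0.61, SE 0.09, adjusted p = 0.00379). SLC16A3, the lactate exporter of glycolytic cells, had the same mean in both groups, 37.1 ± 0.341 FPKM with doxycycline, against 37.1 ± 0.426 FPKM with vehicle (adjusted p = 0.9997). BSG, basigin, the chaperone that brings SLC16A1 and SLC16A3 to the membrane, was slightly lower (77.4 ± 1.1 FPKM with doxycycline, against 83.4 ± 0.754 FPKM with vehicle, adjusted p = 0.0189).

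SLC13A3, the sodium-coupled dicarboxylate carrier that takes up succinate and related acids (chromosome 20, 45186462 to 45313106, minus strand), was at 1.75, 1.67 and 1.52 FPKM with doxycycline, against 7.05, 6.38 and 6.0 FPKM with vehicle. All doxycycline libraries lay well under all vehicle libraries, 3.94-fold lower by the means (log2 fold change -1.50, SE 0.07, adjusted p = 5.20e-05). An exon of SLC13A3 overlaps TP53RK on the same strand in GENCODE 29. Its relative SLC13A5, the citrate carrier of liver, fell only to 10.3 ± 0.436 FPKM with doxycycline, against 12.1 ± 0.0992 FPKM with vehicle. SLC16A13 fell to 5.55 ± 0.528 FPKM with doxycycline, against 7.83 ± 0.571 FPKM with vehicle.

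**Figure D2:**
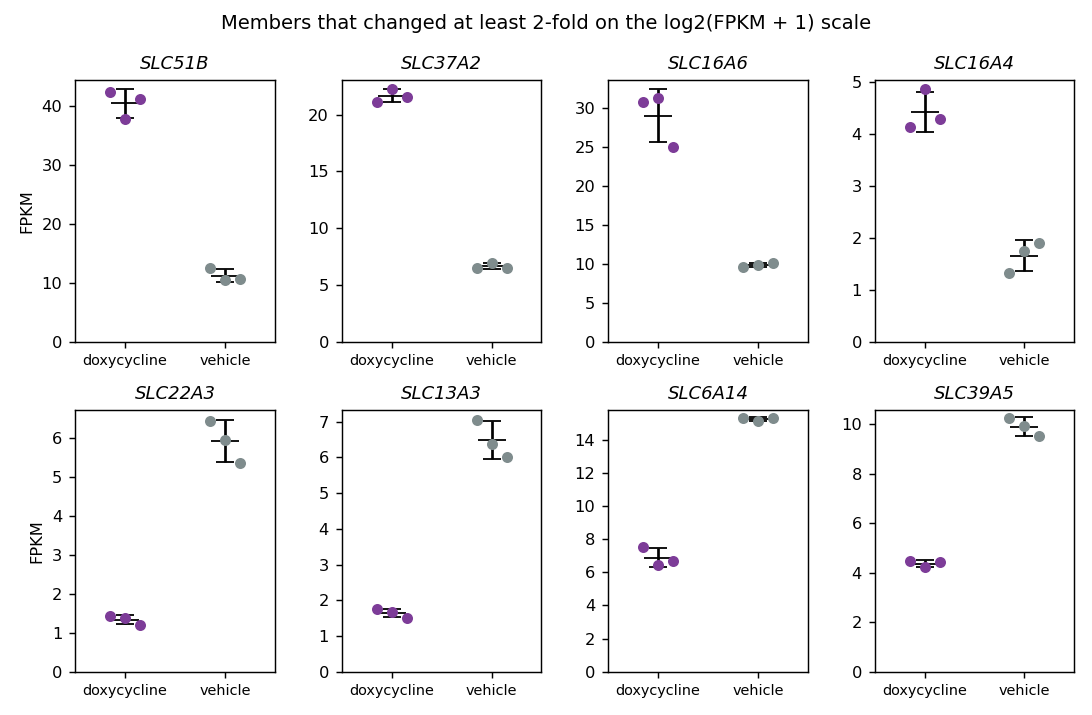
FPKM in each library for the 8 solute carriers called with a 2-fold change in FPKM + 1, doxycycline (purple) left of vehicle (grey), with mean and SD in black. In each panel the 3 doxycycline libraries lie on one side of the 3 vehicle libraries, above them in SLC51B, SLC37A2, SLC16A6 and SLC16A4 and below them in SLC22A3, SLC13A3, SLC6A14 and SLC39A5.

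Of 7 tested carriers of drugs and other organic ions 4 fell and 1 rose (71.4% called, beside 28.8% of all genes tested). Their summed level was 51.1 ± 0.483 FPKM with doxycycline and 47.6 ± 1.84 FPKM with vehicle. The median log2 fold change of -0.55 was the lowest of the 14 classes. With 7 genes it is the value of SLC22A23, which like SLC22A31 was placed here by family number. SLC22A3, the organic cation transporter OCT3 (chromosome 6, 160769300 to 160873613, plus strand), had the largest decrease of all solute carriers, at 1.43, 1.39 and 1.21 FPKM with doxycycline, against 6.45, 5.97 and 5.38 FPKM with vehicle. The groups were far apart, 4.43-fold by the means (log2 fold change -1.57, SE 0.08, adjusted p = 5.74e-05). SLCO2B1, an uptake carrier of steroid sulfates and many drugs (chromosome 11, 74811608 to 74917594, plus strand), was at 1.36, 1.38 and 2.4 FPKM with doxycycline, against 4.54, 4.15 and 4.17 FPKM with vehicle. Doxycycline replicate 3 stood above the other 2 and under every vehicle library, and the log2 fold change of -0.98 (SE 0.15, adjusted p = 0.00474) was -1.16 without it. SLC22A23 (1.77 ± 0.123 FPKM with doxycycline, against 3.06 ± 0.294 FPKM with vehicle) and SLC22A31 (3.83 ± 0.665 FPKM with doxycycline, against 6.54 ± 0.71 FPKM with vehicle), of the same family as SLC22A3, fell too.

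SLCO4A1, a carrier of thyroid hormones and other organic anions found in many tissues (chromosome 20, 61273797 to 61317137, plus strand), was the member of this class that rose. Its values were 27.6, 25.8 and 29 FPKM with doxycycline, against 14.6, 14.3 and 15.5 FPKM with vehicle, a 1.86-fold difference without overlap (log2 fold change 0.85, SE 0.05, adjusted p = 1.41e-04). SLC47A1, which exports organic cations, was not called: doxycycline replicate 3 (6.47 FPKM) and vehicle replicate 3 (5.7 FPKM) were each the lowest of their group and the groups overlapped (9.3 ± 2.49 FPKM with doxycycline, against 7.45 ± 1.54 FPKM with vehicle, adjusted p = 0.412). Of the hepatocyte uptake carriers SLCO1B1, SLCO1B3, SLC22A7 and SLC22A9 none was analysed here.

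The amino acid class split evenly, with 9 of 28 tested genes higher, 9 lower and 10 not called, and a median log2 fold change of -0.02. The share called was 64.3%, beside 28.8% of all genes tested. The genes that rose include the 3 most abundant of all solute carriers. SLC38A2 was at 203, 199.5 and 199 FPKM with doxycycline, against 183, 179 and 181 FPKM with vehicle, a difference of 1.11-fold that was larger than the spread of either group (adjusted p = 0.00373). SLC1A5, the glutamine carrier ASCT2, was at 119.8, 116 and 114 FPKM with doxycycline, against 92.8, 91.3 and 91 FPKM with vehicle (1.27-fold higher, log2 fold change 0.34, SE 0.03, adjusted p = 3.99e-04). SLC7A1, which takes up arginine and lysine, rose to 30.4 ± 1.39 FPKM with doxycycline, against 24.1 ± 0.249 FPKM with vehicle, and SLC38A1, another glutamine carrier, to 48.6 ± 1.48 FPKM with doxycycline, against 36.4 ± 0.137 FPKM with vehicle. In each of these 4 genes the lowest doxycycline library was above the highest vehicle library.

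Heteromeric amino acid transporters consist of a heavy and a light chain. SLC3A2, the heavy chain 4F2hc that carries several light chains to the membrane, was at 27.9, 28.1 and 27.1 FPKM with doxycycline, against 24.6, 22.2 and 24.3 FPKM with vehicle (1.17-fold, adjusted p = 0.0176), a call that ended with the replicate block (adjusted p = 0.0513) and without doxycycline replicate 1 (0.0556) or 2 (0.0576). Of its light chains, SLC7A5, the leucine carrier LAT1, rose 1.15-fold at a high level (126 ± 2.87 FPKM with doxycycline, against 109 ± 0.468 FPKM with vehicle, adjusted p = 0.00219). SLC7A11, the cystine and glutamate exchanger, was at 23.7, 22.7 and 20.5 FPKM with doxycycline, against 14.7, 14 and 14.1 FPKM with vehicle, 1.56-fold higher (log2 fold change 0.61, SE 0.06, adjusted p = 8.26e-04). SLC7A6 had 6.68, 11.6 and 6.59 FPKM with doxycycline and 10.2, 10.4 and 10.8 FPKM with vehicle. Doxycycline replicate 2 alone was above the vehicle libraries, and the gene was called lower without it (log2 fold change -0.59, adjusted p = 0.00152, beside -0.34 and 0.256 with all libraries). The exons of SLC7A6 overlap those of SLC7A6OS on the other strand. SLC7A9, the light chain that pairs with SLC3A1 in kidney and gut, fell to 0.58 ± 0.0868 FPKM with doxycycline, against 1.71 ± 0.0939 FPKM with vehicle. SLC7A7 lay under the minimum for testing, with 0.729, 0.724 and 0.597 FPKM with doxycycline, against 0.398, 0.457 and 0.246 FPKM with vehicle. SLC3A1 and SLC7A8 were not analysed here.

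The 6 largest changes among called genes of the amino acid class were decreases. The class follows family number, so SLC6A4 and SLC6A8, carriers of serotonin and creatine, are counted in it. SLC6A14, a carrier with a broad range of neutral and basic amino acids (chromosome X, 115567790 to 115592625, plus strand), was at 7.51, 6.44 and 6.68 FPKM with doxycycline, against 15.3, 15.1 and 15.3 FPKM with vehicle. Its vehicle libraries were nearly equal and the doxycycline libraries 2.21-fold lower by the means (log2 fold change -1.04, SE 0.06, adjusted p = 8.78e-05). SLC6A11, a carrier of GABA, fell to 2.74 ± 0.0651 FPKM with doxycycline, against 5.99 ± 0.136 FPKM with vehicle (adjusted p = 5.74e-05) and SLC6A4, the serotonin transporter, to 3.12 ± 0.307 FPKM with doxycycline, against 5.66 ± 0.215 FPKM with vehicle. The glutamine carriers SLC38A5 (6.85 ± 0.469 FPKM with doxycycline, against 12.5 ± 1.38 FPKM with vehicle) and SLC38A3 (2.14 ± 0.127 FPKM with doxycycline, against 4.12 ± 0.385 FPKM with vehicle), of which SLC38A3 serves glutamine exchange in liver, fell as well. Of the 6 tested genes of family SLC6 none was left without a call, while 28.8% of all genes tested were called. This count was made after the values were seen and was not tested. The taurine carrier SLC6A6 (23.6 ± 1.03 FPKM with doxycycline, against 17.1 ± 0.222 FPKM with vehicle) and the glycine carrier SLC6A9 (2.1 ± 0.286 FPKM with doxycycline, against 1.28 ± 0.096 FPKM with vehicle) rose. The creatine carrier SLC6A8 fell (10.9 ± 0.0989 FPKM with doxycycline, against 16.3 ± 0.554 FPKM with vehicle).

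**Figure D3:**
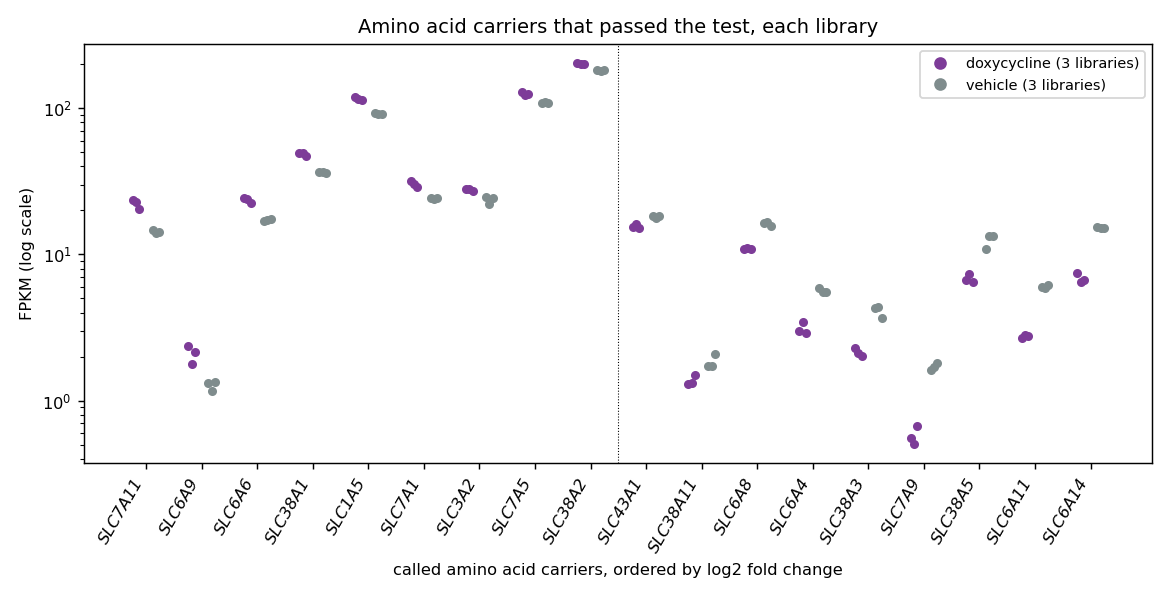
FPKM on a log scale in each of the 6 libraries for the 18 called amino acid carriers, ordered by log2 fold change, with the doxycycline libraries (purple) left of the vehicle libraries (grey). The 9 genes left of the dotted line rose and include SLC38A2, SLC7A5 and SLC1A5, the 3 highest, while the 9 genes right of it fell and are at most at 18.4 FPKM.

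Sugar carriers had 4 of 14 tested genes higher and 3 lower (50% called, beside 28.8% of all genes tested). SLC37A2, a sugar phosphate exchanger of the endoplasmic reticulum (chromosome 11, 124932963 to 124960208, plus strand), was at 21.2, 22.3 and 21.5 FPKM with doxycycline, against 6.5, 6.96 and 6.46 FPKM with vehicle. The libraries of each group were close together and the ratio of means was 3.26 (log2 fold change 1.57, SE 0.04, adjusted p = 1.15e-05). Its relative SLC37A4, the glucose 6-phosphate translocase that serves glucose release in liver, fell slightly, to 3.94 ± 0.124 FPKM with doxycycline, against 4.73 ± 0.321 FPKM with vehicle (adjusted p = 0.0384), a call that ended in 6 of 15 alternatives (adjusted p 0.0284 to 0.108). SLC5A3, which takes up myo-inositol, rose to 11.6 ± 0.394 FPKM with doxycycline, against 7.57 ± 0.431 FPKM with vehicle. Its exons overlap those of MRPS6 on the same strand, so reads of the 2 genes may be shared. SLC2A10, the highest of the class by the mean over all 6 libraries and with vehicle but not with doxycycline, was at 11.8, 10.9 and 11.5 FPKM with doxycycline, against 18.8, 19.4 and 19 FPKM with vehicle, 1.67-fold lower (log2 fold change -0.70, SE 0.04, adjusted p = 1.08e-04). SLC2A8 rose (6.84 ± 0.24 FPKM with doxycycline, against 4.73 ± 0.387 FPKM with vehicle), while SLC2A14, nearly identical in sequence to SLC2A3 and so uncertain, was lower (2.24 ± 0.161 FPKM with doxycycline, against 3.06 ± 0.358 FPKM with vehicle), a call that ended in 5 of 15 alternatives (adjusted p 0.0153 to 0.0899).

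In the vitamin and choline carriers 1 of 11 tested genes rose and 2 fell. That is 27.3% called and so near the 28.8% of all genes tested. The gene that rose, SLC23A2, the widespread ascorbate carrier SVCT2 (chromosome 20, 4833002 to 4990939, minus strand), is the highest of the class in both groups and ranks 4 among all solute carriers with doxycycline and 8 with vehicle. It was at 76.1, 76.2 and 74.9 FPKM with doxycycline, against 41.5, 39.5 and 41.7 FPKM with vehicle, with little spread in either group (1.85-fold, log2 fold change 0.87, SE 0.03, adjusted p = 2.11e-05). SLC23A1, the ascorbate carrier SVCT1 of liver, kidney and gut, fell to 1.45 ± 0.152 FPKM with doxycycline, against 2.3 ± 0.205 FPKM with vehicle (adjusted p = 0.00772). SLC44A4, a carrier of thiamine pyrophosphate, fell to 2.17 ± 0.153 FPKM with doxycycline, against 3.91 ± 0.0948 FPKM with vehicle. The thiamine carrier SLC19A2 had 10.7 FPKM in doxycycline replicate 2, against 3.63 and 4.29 FPKM in the other doxycycline libraries and 5.06, 5.13 and 4.76 FPKM with vehicle, and was not called.

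Of 24 tested carriers of metals and heme 4 rose and 6 fell (41.7% called, beside 28.8% of all genes tested). None of the 12 tested SLC39 genes, whose products bring zinc and related metals into the cytosol, rose, and 4 fell. Over all genes tested 15.2% were called higher and 13.6% lower. SLC39A5 (chromosome 12, 56623833 to 56631630, plus strand) was at 4.48, 4.21 and 4.43 FPKM with doxycycline, against 10.2, 9.93 and 9.5 FPKM with vehicle, without overlap and 2.26-fold lower (log2 fold change -1.02, SE 0.05, adjusted p = 4.67e-05). SLC39A14, a carrier of manganese, zinc and iron in liver, fell to 50.6 ± 1.25 FPKM with doxycycline, against 68.6 ± 0.809 FPKM with vehicle, SLC39A4 to 7.65 ± 0.179 FPKM with doxycycline, against 9.12 ± 0.169 FPKM with vehicle and SLC39A11 to 3.18 ± 0.406 FPKM with doxycycline, against 4.12 ± 0.272 FPKM with vehicle. The call of SLC39A11 ended in 6 of 15 alternatives (adjusted p 0.023 to 0.126). SLC39A7, which releases zinc from the endoplasmic reticulum and is the highest of the class by the mean over all 6 libraries, though SLC39A14 is higher with vehicle, was not called (65.2 ± 1.43 FPKM with doxycycline, against 67.4 ± 2.65 FPKM with vehicle). SLC30A1, the zinc exporter of the cell surface, was at 16.5, 18.2 and 16.4 FPKM with doxycycline, against 11, 11.5 and 12 FPKM with vehicle, 1.48-fold higher (log2 fold change 0.53, SE 0.06, adjusted p = 0.00114). SLC48A1, a heme carrier, rose to 4.66 ± 0.167 FPKM with doxycycline, against 3.01 ± 0.235 FPKM with vehicle, and its exons overlap 2 genes on the other strand. The copper importer SLC31A1 fell to 19.9 ± 0.65 FPKM with doxycycline, against 23.8 ± 0.889 FPKM with vehicle.

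Carriers of ions had 5 of 20 tested genes higher and 3 lower (40% called, beside 28.8% of all genes tested). SLC26A9, a chloride carrier, was at 3.05, 3.35 and 3.5 FPKM with doxycycline, against 1.32, 1.58 and 1.63 FPKM with vehicle, 2.18-fold higher at a low level (log2 fold change 0.78, SE 0.07, adjusted p = 7.25e-04). SLC26A11, an anion exchanger, was at 2.62, 2.6 and 1.72 FPKM with doxycycline, against 1.48, 0.927 and 1.07 FPKM with vehicle, and its call ended without vehicle replicate 2 (adjusted p = 0.0781) or 3 (0.0769) and without doxycycline replicate 1 (0.0783) or 2 (0.0789). The bicarbonate carrier SLC4A7 rose to 13.9 ± 0.36 FPKM with doxycycline, against 9.74 ± 0.231 FPKM with vehicle. SLC4A11, the highest of the class, fell to 21.7 ± 1.55 FPKM with doxycycline, against 29.3 ± 0.197 FPKM with vehicle. The scaffold SLC9A3R2, which is not a carrier, rose 1.94-fold, at 14.2, 13.9 and 14.9 FPKM with doxycycline, against 7.11, 7.62 and 7.49 FPKM with vehicle (adjusted p = 7.35e-05). Its relative SLC9A3R1 was at 42 ± 4.57 FPKM with doxycycline, against 54.3 ± 5.53 FPKM with vehicle, a call that ended in 8 of 16 alternatives (adjusted p 0.0394 to 0.118). SLC4A1AP, also not a carrier, was at 9.9 ± 0.28 FPKM with doxycycline, against 8.86 ± 0.205 FPKM with vehicle, a call that ended in 8 of 16 alternatives (adjusted p 0.0356 to 0.114).

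Carriers of nucleotide sugars feed glycosylation in the Golgi. Families SLC35 and SLC33 were placed in this class by family number, so not all genes counted are known carriers of nucleotide sugars. Of 22 tested genes 4 rose and 2 fell, 27.3% called and so near the 28.8% of all genes tested. SLC35F6 was at 17.4, 16.8 and 17.4 FPKM with doxycycline, against 11.2, 10.6 and 11.7 FPKM with vehicle (1.54-fold, log2 fold change 0.58, SE 0.04, adjusted p = 3.03e-04). SLC35F2 rose to 17.9 ± 0.207 FPKM with doxycycline, against 13.3 ± 1.14 FPKM with vehicle and SLC35B4, a carrier of UDP-xylose and UDP-N-acetylglucosamine, to 5.11 ± 0.080 FPKM with doxycycline, against 4.19 ± 0.0901 FPKM with vehicle. SLC35D2, the highest of the class, was not called (32 ± 1.24 FPKM with doxycycline, against 33.9 ± 0.365 FPKM with vehicle). Of the nucleoside carriers, SLC29A1, the carrier of the cell surface, fell to 15.8 ± 0.22 FPKM with doxycycline, against 22.1 ± 0.193 FPKM with vehicle (adjusted p = 1.65e-04), and SLC29A3, the carrier of lysosomes, rose to 17.8 ± 0.464 FPKM with doxycycline, against 14.3 ± 0.847 FPKM with vehicle (adjusted p = 0.00669).

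Among phosphate carriers and their relatives SLC20A1, the phosphate importer PiT1, rose to 29.3 ± 0.959 FPKM with doxycycline, against 23.7 ± 0.789 FPKM with vehicle, and SLC17A9, which loads ATP into vesicles, fell to 25.9 ± 0.258 FPKM with doxycycline, against 32 ± 0.56 FPKM with vehicle. None of the 3 tested fatty acid carriers of family SLC27 was called, and SLC27A4, the highest by the mean over all 6 libraries but not with vehicle, was at 7.8 ± 0.306 FPKM with doxycycline, against 7.21 ± 0.182 FPKM with vehicle (adjusted p = 0.152). SLC15A4, a lysosomal carrier of peptides and histidine, was at 3.5 ± 0.267 FPKM with doxycycline, against 2.87 ± 0.101 FPKM with vehicle, a call that ended in 6 of 15 alternatives (adjusted p 0.0305 to 0.118). SLC18B1, a vesicular polyamine carrier, was not called (7.16 ± 0.315 FPKM with doxycycline, against 8.07 ± 0.988 FPKM with vehicle).

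**Figure D4:**
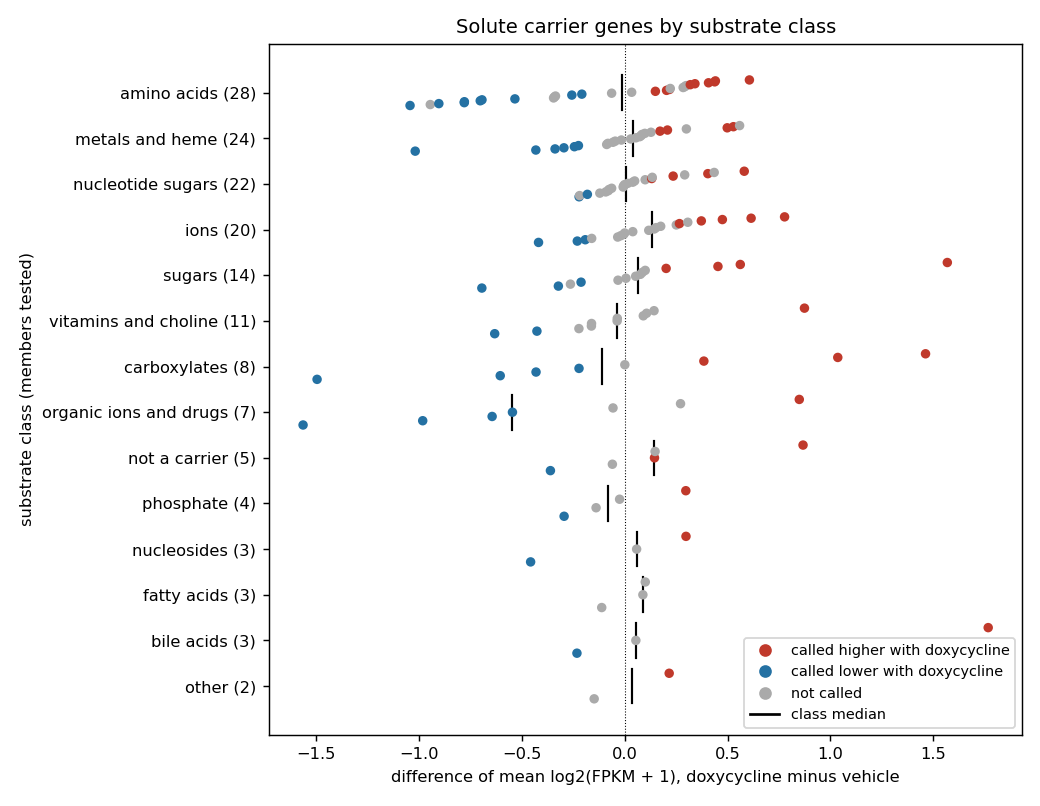
Difference of mean log2(FPKM + 1), doxycycline minus vehicle, on the horizontal axis for each of the 154 tested genes, in rows by substrate class with the number tested, coloured by call, with the class median as a black line. Amino acid carriers hold 9 red and 9 blue points, and the median of carriers of organic ions and drugs is the lowest, at -0.55.

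The 19 genes under the minimum of 1 FPKM took no part in the test, and without the filter 9 of them passed it (47.4%), 4 higher and 5 lower, beside 25.8% of the 987 genes of the table under that minimum. SLC17A1, a phosphate and urate carrier of liver and kidney, was at 0.381, 0.171 and 0.155 FPKM with doxycycline, against 0.864, 1.22 and 1.51 FPKM with vehicle. SLC5A9, a sodium-coupled sugar carrier, was at 0.276, 0.299 and 0.406 FPKM with doxycycline, against 1.82, 1.35 and 0.96 FPKM with vehicle. SLC6A12, a betaine and GABA carrier, was at 1.19, 0.954 and 1.06 FPKM with doxycycline, against 0.477, 0.376 and 0.424 FPKM with vehicle, the reverse direction. SLC27A5, which activates bile acids and fatty acids in liver, was at 0.728, 0.609 and 0.753 FPKM with doxycycline, against 1.22, 1.1 and 1.11 FPKM with vehicle, and SLC10A5, an orphan of the bile acid family, at 0.193, 0.225 and 0.296 FPKM with doxycycline, against 0.529, 0.853 and 0.66 FPKM with vehicle. These 5 genes were picked with their values known, so the lack of overlap of their groups is no separate evidence. Of the rest that passed without the filter, SLC41A1, SLC52A3 and SLC7A7 were higher and SLC6A19 was lower. Of the called genes 2, SLC7A9 and SLC30A3, had a mean under 1 FPKM with doxycycline.

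The 80 tested genes without a call had ratios of means from 0.355 to 1.76. In some the spread was that of 1 library. A value at least 1.5 times its neighbour within the group, chosen after the data were seen, occurred in 20 of the 154 solute carriers (13.0%), beside 9.91% of all genes tested. It occurred in 2 of the 74 called ones, SLCO2B1 and SLC26A11. Selection by adjusted p favours a small spread, so the low count among called genes is no separate evidence. Of these 20 genes 8 had exons that overlap another protein-coding gene, beside 43 of the 154 tested (27.9%). SLC7A2, a carrier of basic amino acids, was at 4.07, 4.05 and 3.64 FPKM with doxycycline, against 23.3, 5.08 and 4.76 FPKM with vehicle. Vehicle replicate 1 stood apart, and the log2 fold change of -0.95 (adjusted p = 0.255) was -0.27 without it (adjusted p = 0.0466). SLC35B2, which brings the sulfate donor PAPS into the Golgi, was at 5.04, 20.4 and 4.72 FPKM with doxycycline, against 5.18, 6.08 and 5.84 FPKM with vehicle, with doxycycline replicate 2 apart. SLC39A1 was at 21, 38.4 and 11.8 FPKM with doxycycline, against 28.3, 9.15 and 10.7 FPKM with vehicle, with vehicle replicate 1 and doxycycline replicate 2 high. Leaving out 1 library also let SLC43A2 be called higher (without vehicle replicate 1, adjusted p = 0.0060), SLC38A6 (without vehicle replicate 3, 0.0272), SLC35E2B (without doxycycline replicate 1, 0.0333) and SLC38A7 (without doxycycline replicate 3, 0.0321).

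**Figure D5:**
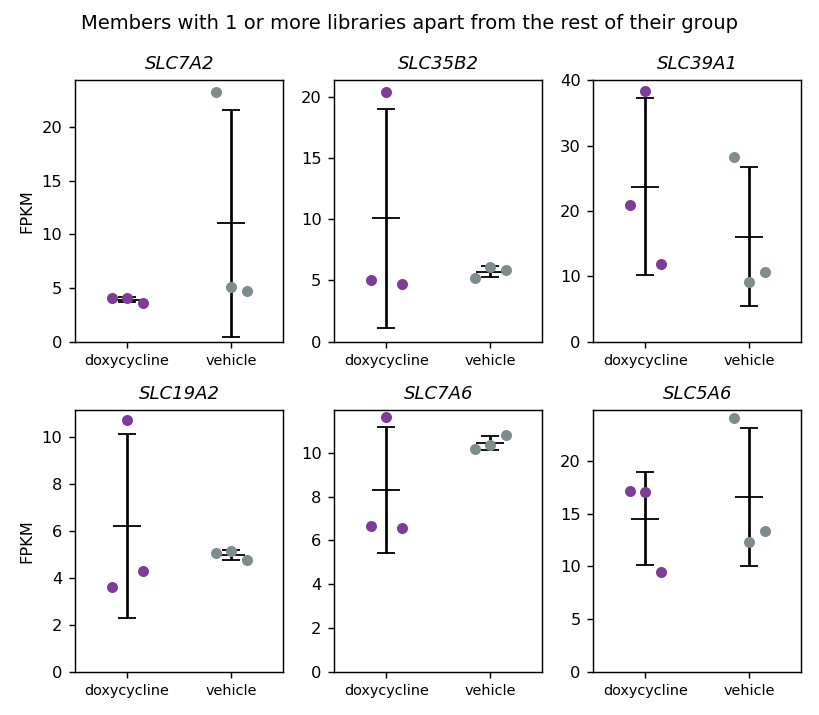
FPKM in each library, doxycycline (purple) left of vehicle (grey) with mean and SD in black, for 6 genes in which 1 or more libraries lie apart from the rest of their group. Doxycycline replicate 2 is the high point in SLC35B2, SLC39A1, SLC19A2 and SLC7A6, and vehicle replicate 1 in SLC7A2, SLC39A1 and SLC5A6.

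A list of 58 carriers without an SLC symbol and partners of carriers had 50 genes in the table, all tested, of which 9 rose and 8 fell (34.0% called, beside 28.8% of all genes). The 3 called genes with the largest changes were lower. PDZK1, the scaffold that anchors SLC22 and SLCO carriers, was at 2.25, 3.08 and 2.54 FPKM with doxycycline, against 7.09, 6.94 and 7.12 FPKM with vehicle (2.69-fold lower, adjusted p = 2.96e-04). RHBG, an ammonium carrier, was at 2.21, 3.4 and 2.77 FPKM with doxycycline and 6.73, 5.82 and 5.59 FPKM with vehicle (adjusted p = 0.00358), and PQLC1 fell to 1.92 ± 0.201 FPKM with doxycycline, against 4.21 ± 1.46 FPKM with vehicle.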

How the data were processed

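The deposited table gives each gene's FPKM, as computed by the authors, in 6 columns, 1 for each library. Tools named in the submitters' processing notes are cutadapt, FastQC, StringTie and HISAT2, and the build is GRCh37, with no version or option. The strand-specific libraries were made from oligo(dT)-selected RNA, per the labels' protocols, and whether strand was used in counting is not given in the sources used here. Gene coordinates are those of the deposited table on GRCh37, and 13 of 13 mitochondrial genes matched GENCODE 29 in start and end, so positions count from 1. Depth is unknown.

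For 5 symbols shared by 10 entries the entry with the highest mean was kept, which left 11456 genes. Those with a mean of at least 1 FPKM over the 6 libraries, 10469, were fitted in limma 3.58.1 (R 4.3.3) on log2(FPKM + 1) with group as the only term and a variance trend, two-sided, with Benjamini-Hochberg adjustment over all of them and a threshold of 0.05. Log2 fold changes are doxycycline minus vehicle on this scale, which understates changes of weak genes, and "fold" is the ratio of mean FPKM. With 3 libraries per group an exact permutation test cannot go under p = 0.1 and was not used. On simulated data for 10469 genes the procedure made 163 calls, 9 of them false. It recovered 62.5% of simulated log2 changes of 0.5, 81.2% of those of 1 and 97.5% of those of 2. Far fewer genes were changed in the simulation than were called here.

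Genes were sorted into 14 substrate classes by family number with exceptions by symbol, and SLC7A6OS was added to the genes that are not carriers after the table was read. Named are the 15 called genes with the largest increase and the 15 with the largest decrease without overlap, up to 3 called genes and the highest gene of each class, a list of hepatocyte carriers and amino acid transporter subunits, and the 3 largest changes of the partner list with BSG. Other genes named, among them SLC1A5, SLC7A1, SLC38A1, SLC6A6, SLC6A8, SLC6A9, SLC13A5, SLC16A3, SLC16A5, SLC16A13, SLC2A8, SLC31A1, SLC39A4 and SLC39A14, were chosen after their values were seen. The members, classes and lists were chosen with earlier results of these data known. Exon overlaps come from protein-coding genes of GENCODE 29, and promoter windows from RefSeq on GRCh38.p14. Figures were drawn with matplotlib 3.10.9 in python 3.11.15.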

Additional observations from a re-analysis of the deposited data

How the results depend on the processing

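Of the 74 calls, 57 held in every alternative that tested the gene (16 alternatives: pseudocounts of 0.1 and 0.5, no filter, a minimum of 5 FPKM, quantile normalization, median-ratio scaling, robust moderation, limma without the trend, the replicate block, summed entries, and each library left out), 29 higher and 28 lower, and none changed sign in any of them. With a minimum of 5 FPKM, which left 83 solute carriers to test, 48 were called, 20 of them lower, against 74 and 37. Over all genes 2203 of 6469 were called with that minimum, against 3012 of 10469 in the main fit. Leaving out 1 library gave 61 to 63 calls, 29 to 33 higher and 28 to 32 lower. The calls over all genes tested fell as well, from 3012 to between 2309 and 2376. An adjusted p below 0.01 left 52 calls. Without the 43 tested genes whose exons overlap another protein-coding gene, an alternative chosen after seeing the data, 59 of 111 were called. Over all genes tested the median stayed between -0.00351 and 0.0116 on the log2 scale. Of 799 values of named genes, 765 kept their side of the threshold, 33 lost their call and 1 gained it. The replicate number as a block gave 62 calls, 31 higher and 31 lower, and 2343 calls over all genes tested, against 3012 without it. The numbers were not taken to pair the libraries: deviations from the group means of same-numbered libraries correlated at 0.015, -0.032 and 0.092 across genes, which are not independent replicates, and not every library correlated best with its own number. Except for the smaller number of genes tested with a minimum of 5 FPKM, the cause of these changes was not tested. Depth is unknown, so no limit of detection is given for the weak carriers.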

Other observations

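Related carriers did not always move together. Of the 29 families with at least 2 tested carriers, 14 held called genes in both directions, 4 called genes that all rose, 8 called genes that all fell and 3 none. In families with a pair of tested genes the split was complete for the ascorbate carriers, where SLC23A2 rose and SLC23A1 fell, for SLCO4A1 and SLCO2B1, and for the copper carriers SLC31A2 (2.08 ± 0.0686 FPKM with doxycycline, against 1.74 ± 0.0729 FPKM with vehicle) and SLC31A1. Of the anion carriers of family SLC26, 2 of 5 rose and none fell. In family SLC22 3 of 4 fell, in SLC13 2 of 2 and in SLC39 4 of 12, and none rose in these 3 families, beside 13.6% of all genes tested that were called lower and 28.8% that were called. These counts are a description, were not tested, and were looked for after the data had been seen. The call of SLC31A2 ended in 8 of 15 alternatives (adjusted p 0.0252 to 0.121), each fit that left out 1 library among them.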
